A study of Mus musculus with 20 samples.

Results

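The cells described here are tumour-infiltrating CD8 T cells that held at least 10 UMIs of the chemokine genes Ccl3 and Ccl4 together, were outside mitosis by their transcripts and had no UMI of Tcf7 or Havcr2. A UMI, or unique molecular identifier, tags 1 captured mRNA molecule. A cell counted as a CD8 T cell when it had at least 3 UMIs of CD3 genes and 1 of Cd8a or Cd8b1, fewer than 5 of C1q genes and Lyz2, and fewer than 10 of pigment genes, and as outside mitosis when 6 mitotic genes together had fewer than 4. The rule found 232 such cells among 4930 CD8 T cells and 7398 kept cells, and they are called Ccl3/Ccl4-high cells below. The cells were chosen by these measured counts, so the levels of Ccl3, Ccl4, Tcf7, Havcr2 and the lineage and mitotic genes, and of the markers Xcl1, Ifng and Gzma that name the cells, are given as descriptions and were not tested.

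The transferred T cells carried the OT-I receptor, a transgenic T cell receptor for an ovalbumin peptide. They had been moved by adoptive transfer into mice with B16-OVA, a mouse melanoma line engineered to make ovalbumin. The rule counted no transcript of that receptor and no donor mark, so CD8 T cells of the host were not told apart from transferred ones. Donor T cells were Tet2 knockout (KO, labelled Tet2-/-, a germline notation with no Cre driver given) or wild-type (WT). Tumour-infiltrating cells were taken 8 days after transfer, with anti-PD-L1 or without it, and each of the groups KO anti-PD-L1, KO untreated, WT anti-PD-L1 and WT untreated was 1 droplet library. How many mice were pooled for a library is not given in the sources used here. The other 16 of 20 samples, from RNA and ATAC sequencing at earlier times, were not analysed here.

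Ccl3 and Ccl4 encode the secreted chemokines MIP-1 alpha and MIP-1 beta, which attract T cells, macrophages and dendritic cells. CD8 T cells transcribe them within hours of engagement of the T cell receptor, together with Xcl1, which draws the XCR1-bearing dendritic cells that cross-present antigen, and with Ifng. Calcium-driven NFAT, AP-1 and NF-kB transcription factors carry the receptor signal to such genes, and Nr4a1, Irf4, Myc and Tnfrsf9 are widely used as transcripts that mark recent signalling. Tcf7 marks progenitor-like cells and Havcr2 encodes TIM-3, a receptor of terminally differentiated cells in tumours, so a cell with neither transcript is placed by the rule in neither class.

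The CD8 T cells of the libraries held between 4734332 and 8139762 UMIs. The high cells held 439183 UMIs in KO anti-PD-L1, 162234 in KO untreated, 446232 in WT anti-PD-L1 and 48766 in WT untreated, so a count of 0 UMIs allows a level of up to 6.83, 18.5, 6.72 and 61.5 CPM in these libraries, in that order. CPM is the UMIs of a gene divided by all UMIs of the cells summed, times 1000000. The median high cell had 5407 UMIs in KO anti-PD-L1, 3274 in KO untreated, 4069 in WT anti-PD-L1 and 3358 in WT untreated. Pairs of libraries shared between 1 and 10 barcodes among kept cells and 0 among high cells. No doublet caller was run here. Tet2 had 7, 4, 11 and 1 UMIs in the high cells of KO anti-PD-L1, KO untreated, WT anti-PD-L1 and WT untreated, and since 3′ tags need not come from the deleted part, these counts check nothing about genotype. The WT untreated library stood apart from the other 3, with 14 high cells and, in them, 0 UMIs of Nr4a1, Nfkbid, Cd69, Rgcc, Socs1 and Klf2. Results that turn on it are also given without it.

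The genes for most of these chemokines lie close together on chromosome 11. In the RefSeq annotation of GRCm38.p6, the assembly behind mm10, Ccl1 spans 82176666 to 82179812, Ccl5 83525778 to 83530518, Ccl9 83572917 to 83578636 and Ccl3 83647843 to 83649378. The gene model of Ccl4 runs over 83648624 to 83664683 and overlaps Ccl3 on the opposite strand, and whether the counting used strand is not given in the sources used here. Xcl1 lies on chromosome 1, at 164931644 to 164935522. Ccl3 is part of the rule, Xcl1 is a marker, and Ccl9 and Ccl1 were called higher than in cells below the chemokine threshold. For these 4 of 6 genes looked for, which have an entry in the RefSeq promoter table, the 250 bases before the transcription start are printed. They are chr11:83649379-83649628 for Ccl3, chr11:83578637-83578886 for Ccl9, chr11:82179813-82180062 for Ccl1 and chr1:164935523-164935772 for Xcl1, all read on the minus strand, with motif matches in capitals.
Ccl3: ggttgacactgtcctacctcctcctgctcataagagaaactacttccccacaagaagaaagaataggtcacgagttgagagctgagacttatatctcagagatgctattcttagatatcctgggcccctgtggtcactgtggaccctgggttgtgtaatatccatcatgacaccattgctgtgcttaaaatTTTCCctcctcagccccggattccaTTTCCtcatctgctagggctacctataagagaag
Ccl9: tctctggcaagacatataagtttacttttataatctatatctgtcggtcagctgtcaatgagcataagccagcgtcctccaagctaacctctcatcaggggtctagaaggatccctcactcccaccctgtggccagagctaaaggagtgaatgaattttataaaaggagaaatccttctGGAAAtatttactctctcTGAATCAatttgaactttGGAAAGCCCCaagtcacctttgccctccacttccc
Ccl1: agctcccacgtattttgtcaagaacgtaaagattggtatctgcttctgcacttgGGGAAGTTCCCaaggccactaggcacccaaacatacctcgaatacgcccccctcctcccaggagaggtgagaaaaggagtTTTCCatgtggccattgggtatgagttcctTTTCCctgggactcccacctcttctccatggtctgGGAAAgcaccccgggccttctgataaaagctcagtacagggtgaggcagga
Xcl1: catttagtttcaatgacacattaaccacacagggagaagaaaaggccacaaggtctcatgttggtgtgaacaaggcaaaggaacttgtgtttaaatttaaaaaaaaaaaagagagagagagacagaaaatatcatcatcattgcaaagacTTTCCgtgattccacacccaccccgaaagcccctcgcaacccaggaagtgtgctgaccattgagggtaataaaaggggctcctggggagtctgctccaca
The motifs were searched on both strands. The NFAT core GGAAA had 2 matches before Ccl3, 2 before Ccl9, 3 before Ccl1 and 1 before Xcl1, and it occurs in 55.6% of all 32851 promoters of this length. The kappaB motif, GGG and CC with 5 bases of any kind between them, had 1 match before Ccl9, which overlaps a GGAAA, and 2 overlapping matches before Ccl1, and it occurs in 45.8% of promoters. The AP-1 motif TGANTCA had 1 match, before Ccl9, and occurs in 6.75% of promoters. The matches describe these letters in this window and show no binding.

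High cells made up 7.28% of CD8 T cells in KO anti-PD-L1 (74 of 1017, exact binomial 95% interval 5.76% to 9.05%) and 3.07% in KO untreated (47 of 1531, 2.26% to 4.06%). They made up 7.48% in WT anti-PD-L1 (97 of 1297, 6.11% to 9.05%) and 1.29% in WT untreated (14 of 1085, 0.707% to 2.16%). Both libraries with anti-PD-L1 thus lay above both untreated ones, and the 2 libraries with anti-PD-L1 lay within each other's intervals. Intervals cover the counting of cells only, and with 1 library in each group no difference between groups was tested. With every cell thinned to 2600 UMIs before the rule was applied, the shares were 8.13%, 2.88%, 7.74% and 1.70% in KO anti-PD-L1, KO untreated, WT anti-PD-L1 and WT untreated, in the same order of treated over untreated. The first of the 2 listings of each barcode gave 6.80%, 2.71%, 6.71% and 2.05%, which brought the 2 untreated libraries closer together.

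**Figure D1:**
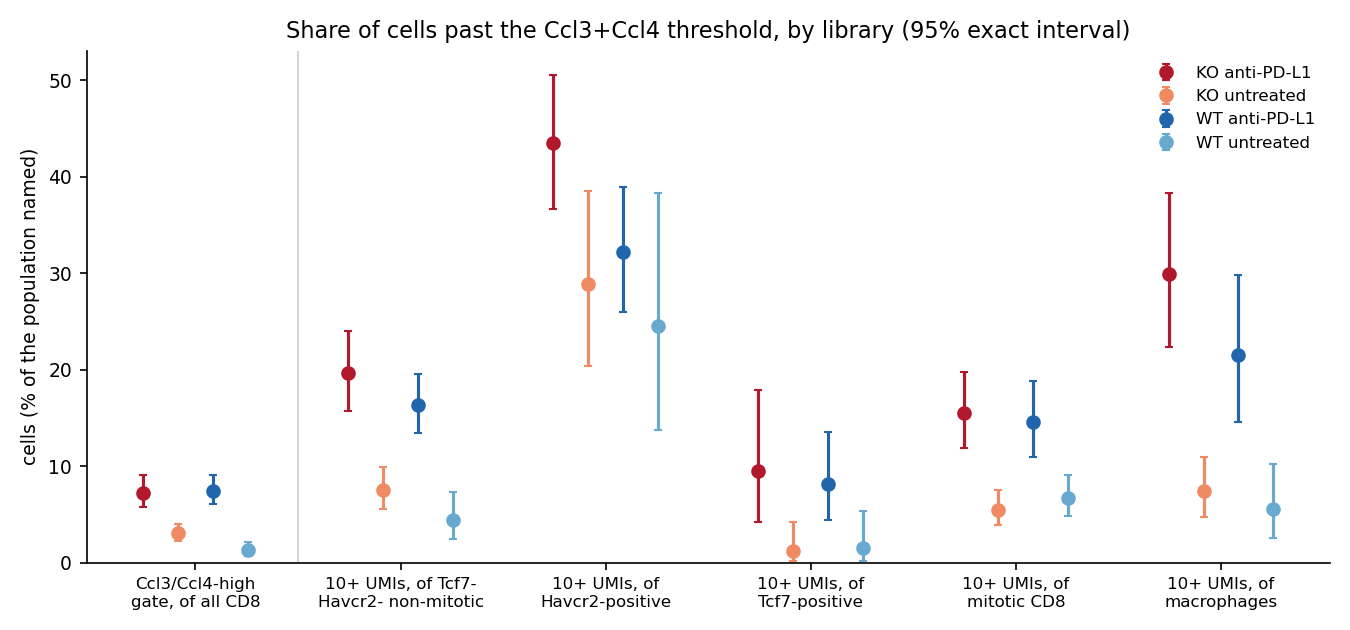
Share of CD8 T cells (percent, linear axis) that were Ccl3/Ccl4-high in each library, and share with at least 10 UMIs of Ccl3 and Ccl4 in classes of CD8 T cells and in macrophage-like cells. Error bars are exact 95% binomial intervals, and the libraries with anti-PD-L1 sit above the untreated library of the same genotype in each class drawn.

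The chemokine threshold was not particular to cells without Tcf7 and Havcr2. Among non-mitotic cells with neither transcript, 19.6% in KO anti-PD-L1, 7.54% in KO untreated, 16.3% in WT anti-PD-L1 and 4.42% in WT untreated reached 10 UMIs. Among Havcr2-positive cells the shares were 43.5%, 28.8%, 32.2% and 24.5% in the same libraries, and among mitotic cells 15.6%, 5.51%, 14.5% and 6.70%. Tcf7-positive cells reached it in 9.52%, 1.18%, 8.18% and 1.504%. The high cells were accordingly 32.6% of all CD8 T cells past the threshold in KO anti-PD-L1, 41.2% in KO untreated, 42.7% in WT anti-PD-L1 and 20.6% in WT untreated. Macrophage-like cells, which also make these chemokines, reached 10 UMIs in 29.9%, 7.41%, 21.5% and 5.56% of cells in KO anti-PD-L1, KO untreated, WT anti-PD-L1 and WT untreated, so both libraries with anti-PD-L1 were above both untreated ones there too. The part of RNA from such cells in the T cell shares was not tested. Among cells without UMIs of other cell types' markers, the high share was 6.598%, 3.26%, 7.59% and 1.76%.

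Over all high cells together, Ccl4 was found in more cells than Ccl3. The median high cell held 37.5 UMIs of Ccl3 and Ccl4 together in KO anti-PD-L1, 25 in KO untreated, 28 in WT anti-PD-L1 and 14 in WT untreated, and the highest cell held 656. Ccl4 was absent from 1 of the 232 cells and Ccl3 from 34, but in WT untreated Ccl3 was found in 14 cells and Ccl4 in 13. Ccl4 stood at 13017 CPM in KO anti-PD-L1, 8032 in KO untreated, 11209 in WT anti-PD-L1 and 3753 in WT untreated, which was lowest in WT untreated. Ccl3 stood at 4274, 2798, 3182 and 3281 CPM in the same libraries and did not set WT untreated apart.

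The other 3 markers were uneven. Xcl1 was absent from 76 of the 232 high cells, and its median was 7 UMIs in KO anti-PD-L1, 4 in KO untreated, 4 in WT anti-PD-L1 and 0 in WT untreated. Of the 14 WT untreated cells, 3 had any Xcl1, and 1 of them held 72.5% of its 91 UMIs. Xcl1 stood at 8773 CPM in KO anti-PD-L1, 8987 in KO untreated, 7796 in WT anti-PD-L1 and 1866 in WT untreated, against 816, 986, 729 and 657 CPM in chemokine-low cells, defined as the CD8 T cells that met every part of the rule except the chemokine threshold. Ifng stood at 2807, 888, 979 and 636 CPM in the high cells of these libraries, but a single cell in KO anti-PD-L1 held 466 of the 1233 Ifng UMIs there, or 37.8%. Gzma, a granzyme, was found in 113 of the 232 cells and in 0 of the 14 WT untreated cells. Gzma stood at 1649, 2607, 1665 and 0 CPM in the high cells of KO anti-PD-L1, KO untreated, WT anti-PD-L1 and WT untreated, against 710, 362, 742 and 67.6 CPM in chemokine-low cells and 1821, 2368, 1849 and 230 CPM in Havcr2-positive cells, so the cells named for it had less than Havcr2-positive cells in 3 of 4 libraries. Ifng in Havcr2-positive cells stood at 721, 1314, 1051 and 699 CPM, above the high cells in all libraries but KO anti-PD-L1. All 5 markers were thus above the chemokine-low level in 3 libraries. Ccl3 and Ccl4 were so by construction, since the rule splits these classes on them. Ifng and Gzma did not set high cells apart from Havcr2-positive cells, and Ccl3 and Xcl1 on their own are not given for Havcr2-positive cells. Summed over the 5 markers, Havcr2-positive cells stood at 9787, 13725.5, 12191 and 3271 CPM in KO anti-PD-L1, KO untreated, WT anti-PD-L1 and WT untreated. The sums were 30520, 23312, 24832 and 9535 CPM in high cells and 2002, 1810, 1794 and 1120 CPM in chemokine-low cells. All these sums include Ccl3 and Ccl4, so the rule itself sets part of their differences. The 14 WT untreated cells carried Ccl3 and Ccl4, little Xcl1 and no Gzma UMI, and are named by the rule alone.

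Few cells of other types held UMIs of the T cell markers. Shares here are over the cells of all 4 libraries together unless a library is named, and the classes drew unequally on the libraries. After thinning every cell to 2600 UMIs, 66.3% of 208 high cells had an Xcl1 UMI, against 40.0% of chemokine-low cells, 1.40% of macrophage-like cells and 0.804% of pigment cells. For Ifng the shares were 57.7% of high cells, 41.6% of Havcr2-positive cells, 21.0% of chemokine-low cells, 0.623% of macrophage-like cells and 0.101% of pigment cells. Gzma was found in 42.8% of high cells, 38.1% of Havcr2-positive cells and 18.3% of chemokine-low cells, and in KO anti-PD-L1 in 30.0% of high cells and 38.3% of Havcr2-positive cells. In WT untreated, Ifng was found in 40.0% of high cells and 64.1% of Havcr2-positive cells. Ccl4 itself was found in 99.5% of high cells, 28.5% of chemokine-low cells and 1.21% of pigment cells, and in 38.0% of macrophage-like cells, which transcribe it.

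**Figure D2:**
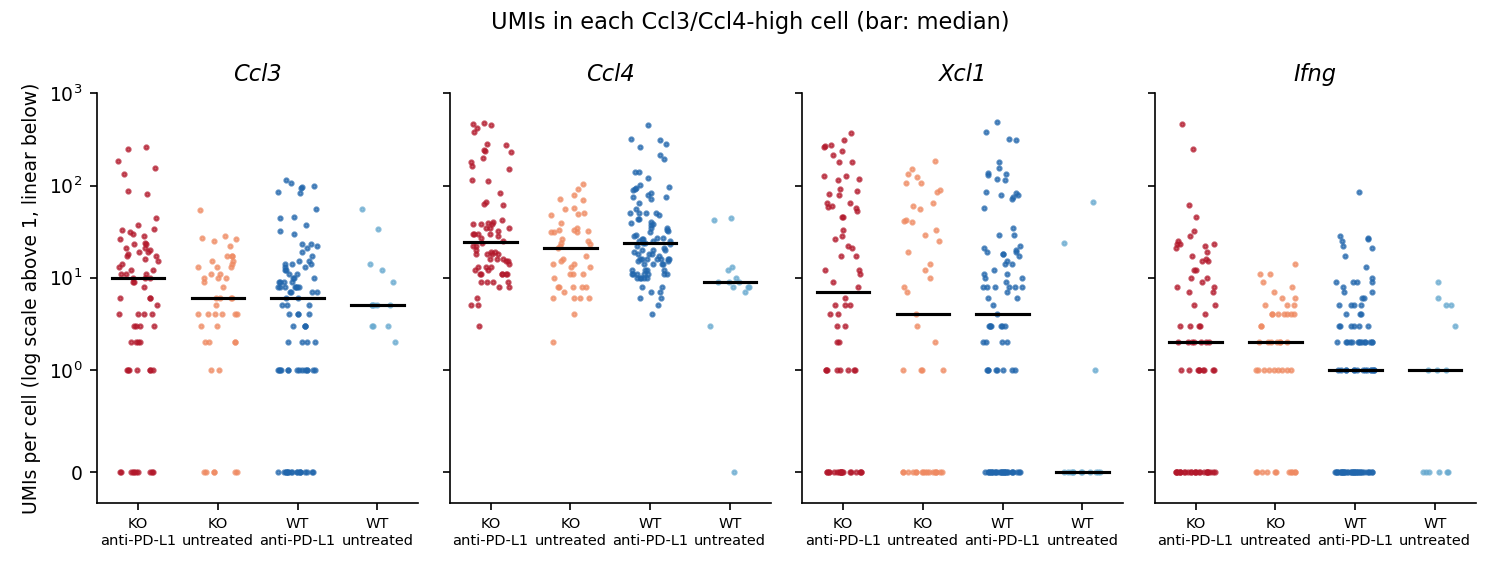
UMIs per cell of the marker genes in the high cells of each library (axis linear below 1 and log-scaled above it, 1 point for each cell, with the median marked). The 14 cells of WT untreated lie at the low end for Ccl4 and mostly at 0 for Xcl1.

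Cells just outside and just inside the threshold differed less from each other than from the cells further inside in Xcl1, Ifng and Nr4a1. For this, UMIs were summed over the cells of all 4 libraries together. The 76 cells with 7 to 9 UMIs of Ccl3 and Ccl4 had 1643 CPM of Xcl1, 408 of Ifng, 3079 of Gzmb and 295 of Nr4a1. The 41 cells with 10 to 12 UMIs had 1245 CPM of Xcl1, 415 of Ifng, 3739 of Gzmb and 293 of Nr4a1. The 191 cells with 13 or more had 9519 CPM of Xcl1, 1945 of Ifng, 4483 of Gzmb and 505 of Nr4a1. In these pooled sums, cells just inside had less Xcl1 and more Gzmb than cells just outside. The part of an unlike mix of libraries in these differences was not tested. The threshold is a point on a range of chemokine levels.

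To ask which other genes went with the chemokines, the 232 high cells were set against the 1679 chemokine-low cells, in which only the chemokine part of the rule was turned round. UMIs were summed over the cells of each class in each library, and the 4 pairs of sums were tested with edgeR's quasi-likelihood test with the library as a block and Benjamini-Hochberg adjustment over all genes. Of 6214 genes tested, 265 (4.26%) were higher and 179 (2.88%) lower in high cells at an adjusted p under 0.05. Genes of the rule and the markers are left out of these counts. Because the rule selects on Ccl3 and Ccl4, a gene that varies with them from cell to cell differs by construction. The 4 libraries are of 4 different groups, and the test takes the spread between them in part from other genes. A small p-value therefore does not show that a gene agreed across the libraries. Ccl1, for example, was called although its level was lower in high cells in KO anti-PD-L1. The levels of the 4 libraries lay apart between the classes, with no overlap, for 2.88% of genes upward and 3.7% downward. The counts were 341 higher and 209 lower without WT untreated, 95 and 55 without WT anti-PD-L1, 113 and 79 without KO anti-PD-L1, and 148 and 59 without KO untreated.

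Other chemokine genes were among the largest differences. Of 5 tested, 3 rose and 1 fell in high cells, and the list's median log2 fold change was 1.10, beside -0.04 over all genes tested. Ccl9, which like Ccl3 encodes a macrophage inflammatory protein of the mouse, stood at 348 CPM in KO anti-PD-L1, 253 in KO untreated, 343 in WT anti-PD-L1 and 369 in WT untreated, against 15.1, 69.9, 14.4 and 31.2 CPM in the chemokine-low cells of these libraries. The 2 classes did not overlap, and its log2 fold change was 3.48 ± 0.19 (SE, adjusted p = 5.96e-33). Its UMIs lay in 25 of the 232 high cells, 1 WT anti-PD-L1 cell held 109 of the 153 there, and with a spread fitted robustly its adjusted p was 0.122.

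Ccl5, a chemokine of effector and memory CD8 T cells, was broad, with UMIs in 226 of 232 high cells. It stood at 9231 CPM in KO anti-PD-L1, 9918 in KO untreated, 12637 in WT anti-PD-L1 and 2481 in WT untreated, against 5589, 3575, 6594 and 767 CPM in chemokine-low cells. It was higher in each library by its own pair, although the range of the classes overlapped because of WT untreated, and its log2 fold change was 1.10 ± 0.11 (adjusted p = 4.68e-14). Ccl1, a chemokine of activated T cells and ligand of CCR8, stood at 56.9 CPM in KO anti-PD-L1, 986 in KO untreated, 1159 in WT anti-PD-L1 and 533 in WT untreated, against 144, 159, 101 and 75.9 CPM in chemokine-low cells. Its level was thus lower in high cells in KO anti-PD-L1 and higher in the other 3 libraries, but in WT untreated all 26 UMIs lay in 1 high cell. Its log2 fold change of 2.14 ± 0.21 passed the test, rested on 42 cells with UMIs and lost the call with a robust spread. Ccl2, a monocyte chemokine, had 0 UMIs in the high cells of every library, against 2, 168, 79 and 1 UMIs in the chemokine-low cells of KO anti-PD-L1, KO untreated, WT anti-PD-L1 and WT untreated, and was called lower. With so few UMIs in KO anti-PD-L1 and WT untreated, no direction can be read from those libraries. How many chemokine-low cells held the Ccl2 UMIs is not given here.

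**Figure D3:**
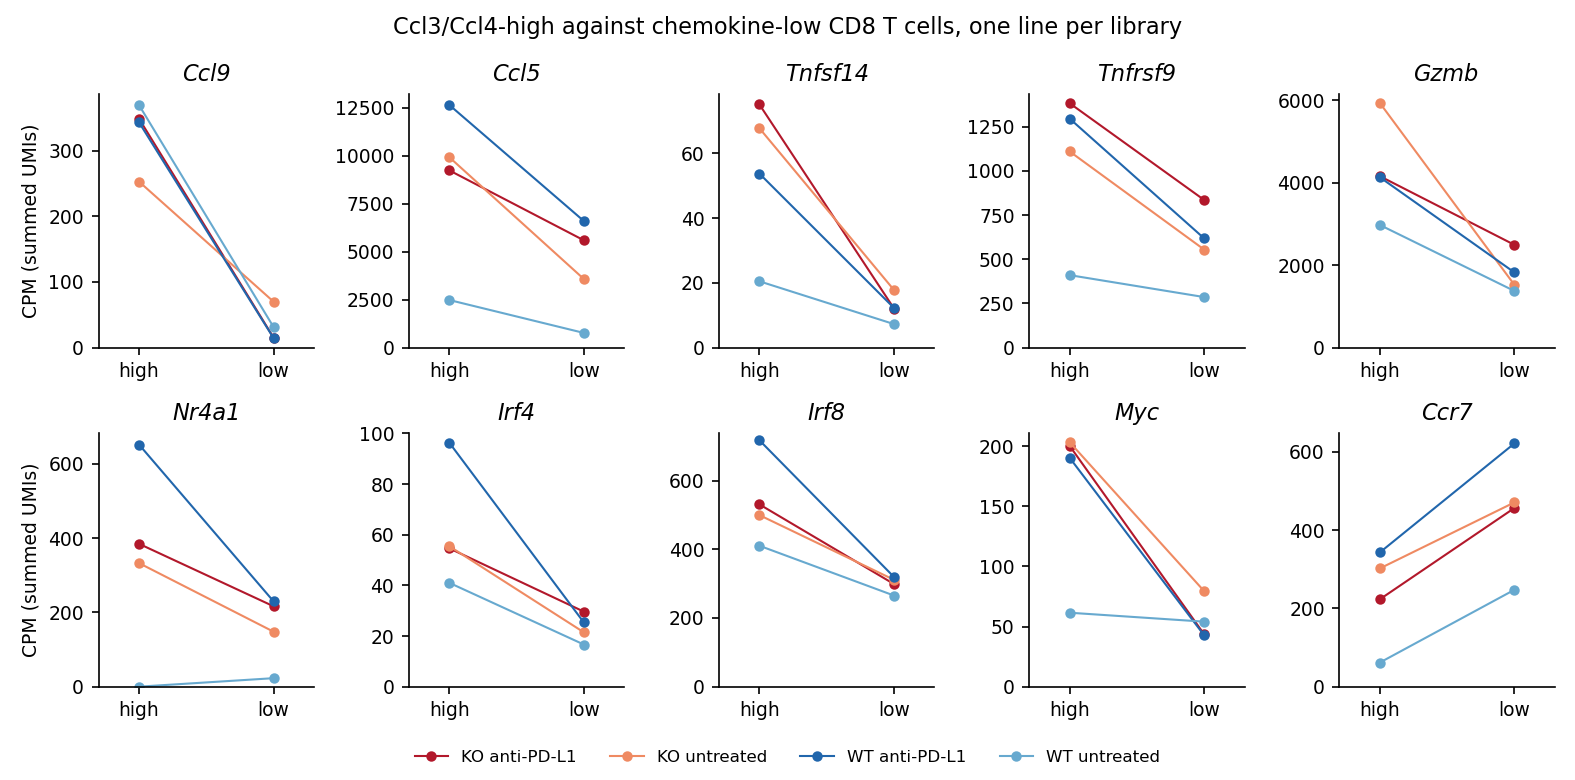
Levels (CPM, linear axis from 0, its own scale for each gene) of leading genes in the high cells, drawn left, and in the chemokine-low cells of the same 4 libraries, with a line joining the 2 sums of a library. Ccl9 at 253 to 369 CPM in high cells lies above 14.4 to 69.9 CPM in chemokine-low cells, and most lines run the same way in each library.

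Secreted and membrane cytokines followed in part. Of 11 tested, 5 were higher and 2 lower, and the median was 0.21. Tnfsf14, or LIGHT, a costimulatory ligand of the TNF family, stood at 75.1 CPM in KO anti-PD-L1, 67.8 in KO untreated, 53.8 in WT anti-PD-L1 and 20.5 in WT untreated, against 12.1, 17.8, 12.3 and 7.28 CPM in chemokine-low cells. The 2 classes did not overlap, but the WT untreated value of the high cells is 1 UMI, so no direction can be read from that library. Its log2 fold change was 2.19 ± 0.29 (adjusted p = 1.74e-09), and it kept its call in 17 of 17 alternative settings. Tnf itself was sparse, at 18.5 to 40.3 CPM in high cells, against at most 7.76 CPM in chemokine-low cells, and higher by 2.27 ± 0.43 (log2, adjusted p = 5.03e-05). The lymphotoxin gene Lta and the TNF family ligands Tnfsf8, which binds CD30, and Tnfsf9, which binds 4-1BB, were higher by 1.45, 1.11 and 1.25 on the log2 scale. The osteopontin gene Spp1 and Il16 were lower, by -0.81 and -1.11.

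Among transcription factors downstream of the T cell receptor, more were called higher than lower. Of 16 tested, 9 were higher and 1 lower, and the median was 0.76. Myc, which drives growth after activation, stood at 200 CPM in KO anti-PD-L1, 203 in KO untreated, 190 in WT anti-PD-L1 and 61.5 in WT untreated, against 43.5, 79.5, 42.7 and 54.1 CPM in chemokine-low cells. The WT untreated value rests on 3 UMIs and overlaps the chemokine-low range, while the other 3 libraries lie apart, and the log2 fold change was 1.80 ± 0.17 (adjusted p = 1.58e-15, kept in 17 of 17 settings). Nr4a1, an orphan nuclear receptor induced by receptor signalling, stood at 385 CPM in KO anti-PD-L1, 333 in KO untreated, 652 in WT anti-PD-L1 and 0 in WT untreated, against 216, 148, 230 and 22.9 CPM in chemokine-low cells, and rose by 1.13 ± 0.14 (adjusted p = 3.80e-10). The 0 in WT untreated allows up to 61.5 CPM, which is above the chemokine-low level of that library, so no direction can be read from it.

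Irf4, a factor whose amount follows the strength of receptor signalling, stood at 54.6, 55.5, 96.4 and 41.0 CPM in the high cells of KO anti-PD-L1, KO untreated, WT anti-PD-L1 and WT untreated, against 29.6, 21.5, 25.4 and 16.6 CPM in chemokine-low cells. The classes did not overlap, but the WT untreated value of the high cells is 2 UMIs, so the lack of overlap rests on few molecules. Its log2 fold change was 1.42 ± 0.24 (adjusted p = 4.10e-06). Irf8, a factor of effector differentiation in CD8 T cells, stood at 410 to 717 CPM in high cells, against 265 to 319 CPM in chemokine-low cells, again with no overlap. Egr2, Nr4a3, Rgcc, Tbx21 and Id2 were higher by 2.05, 0.88, 1.08, 0.69 and 0.38 on the log2 scale, and Ikzf2, or Helios, was the one that fell, by 0.73.

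AP-1 and immediate early genes had 4 of 14 higher and 0 lower, with a median of 0.33. The called members were Fos (0.84), Atf3 (1.58), Ier3 (1.18) and Zfp36l1 (0.59), all as log2 fold changes. Of 15 NF-kB subunits and feedback genes, 5 were higher and 0 lower, and the median was 0.40. They were the subunits Nfkb1 (0.61) and Rel (0.72) and the inhibitors Nfkbia (0.58), Nfkbib (0.54) and Nfkbid (1.57). Nfkbid stood at 257 CPM in KO anti-PD-L1, 228 in KO untreated, 231 in WT anti-PD-L1 and 0 in WT untreated, against 91.9, 74.9, 69.3 and 8.32 CPM in chemokine-low cells.

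Some genes that damp signalling were higher too. Of 18 signalling brakes, 6 were higher and 0 lower, and the median was 0.33. Dusp2 and Dusp5 are phosphatases of MAP kinases and were higher by 0.71 and 0.69 on the log2 scale. Spry1 was higher by 1.68, the G protein regulators Rgs16 and Rgs1 by 0.94 and 0.39, and Socs1, which blocks cytokine receptors, by 1.02. Of 17 genes of the receptor-proximal machinery, 3 were higher and 0 lower, namely Fyn (0.70), Lat (0.39) and Lcp2 (0.80), and the median of the list was 0.02.

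Among early activation molecules of the surface, 5 of 13 were higher and 0 lower, and the median was 0.04. Tnfrsf9, or 4-1BB, a costimulatory receptor induced by antigen, stood at 1382 CPM in KO anti-PD-L1, 1110 in KO untreated, 1295 in WT anti-PD-L1 and 410 in WT untreated, against 835, 554, 618 and 286 CPM in chemokine-low cells. It was higher in each library by its own pair, by 0.84 ± 0.12 (log2, adjusted p = 5.20e-08). Crtam, an adhesion receptor of activated cytotoxic cells, stood at 212, 234, 242 and 164 CPM in the high cells of these libraries, against 67.1, 63.9, 99.4 and 57.2 CPM in chemokine-low cells, with no overlap. Its log2 fold change was 1.51 ± 0.16 (adjusted p = 6.96e-14, kept in 17 of 17 settings). Il2ra (0.95), Slamf7 (0.88) and Cd69 (0.65) were the other called members.

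Cytotoxic genes were higher in a smaller part. Of 18 tested, 4 were higher and 0 lower, and the median was 0.22. Gzmb, the granzyme that activates caspases in target cells, stood at 4155 CPM in KO anti-PD-L1, 5930 in KO untreated, 4130 in WT anti-PD-L1 and 2973 in WT untreated, against 2491, 1522, 1823 and 1374 CPM in chemokine-low cells. The classes did not overlap, and it was higher by 1.17 ± 0.12 (log2, adjusted p = 1.21e-14). Perforin (Prf1) was higher by 1.33 but at only 20.2 to 55.5 CPM, and Srgn, the granule proteoglycan serglycin, and Serpinb9, which protects against granzyme B, were higher by 0.61 and 0.68.

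Of 9 inhibitory receptors, 2 were higher and 0 lower, and the median was -0.31. They were Cd160 (0.82), an inhibitory and NK-associated receptor, and Lilrb4a (1.45). Pdcd1, which encodes PD-1, stood at 351 CPM in KO anti-PD-L1, 376 in KO untreated, 455 in WT anti-PD-L1 and 513 in WT untreated, against 426, 357, 430 and 359 CPM in chemokine-low cells, and its log2 fold change of -0.03 ± 0.13 was not called (adjusted p = 0.937). Its sign turned in 4 of 17 alternative settings. Memory and circulation genes had 5 of 15 lower and 0 higher, with a median of -0.58. Ccr7, the receptor for entry into lymph nodes, stood at 223, 302, 343 and 61.5 CPM in the high cells of KO anti-PD-L1, KO untreated, WT anti-PD-L1 and WT untreated, against 456, 471, 621 and 247 CPM in chemokine-low cells, lower in each library. Bach2 (-1.15), Myb (-1.40) and Dapl1 (-3.38), which goes with naive and memory cells, were also called lower.

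Most of the genes listed for making ribosomes and starting translation were higher. Of 14, 10 were higher and 0 lower, and the median was 0.55. Nop58 and Nolc1, proteins of the nucleolus, were higher by 1.10 and 1.07 on the log2 scale, nucleolin (Ncl) by 0.57 and the initiation factor Eif4a1 by 0.54. Grwd1, a ribosome assembly factor outside the list, was among the 8 largest called differences, at 50.1 to 123 CPM in high cells and 14.4 to 31.2 CPM in chemokine-low cells. The ribosomal protein genes themselves did not go with them: 0 of 20 were higher and 1 lower, and the median was -0.24. Of 14 Gadd45 and heat shock genes, 6 were higher and 0 lower, and the median was 0.41, among them Gadd45b (1.05) and the endoplasmic reticulum chaperone Hspa5 (0.73). Of 14 survival and death genes, 3 were higher and 0 lower, and the median was 0.16, namely Bcl2l1 (1.15), which encodes BCL-XL, Pim1 (0.68) and Cflar (0.70).

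Metabolic and housekeeping lists had few called members. Glycolysis had 0 of 17 higher and 2 lower (median -0.16), oxidative phosphorylation 0 and 0 of 18 (median -0.11), actin and its partners 0 and 1 of 16 (median -0.16), and class I antigen presentation 0 and 2 of 14 (median -0.09). Tissue homing and adhesion had 1 of 21 higher and 2 lower (median -0.11), interferon response 0 and 2 of 17 (median -0.24), and the genes of the TET enzymes and of DNA methylation 0 and 0 of 5 (median 0.17). The 8 largest called increases also held Mir155hg, the host transcript of microRNA-155, at 1.44 (log2). The largest decreases were globin genes, Hba-a2, Hbb-bt, Hba-a1 and Hbb-bs, and they came from single chemokine-low cells. In each library a single cell held 98.7%, 95.4%, 97.7% and 86.8% of the Hbb-bs UMIs of the chemokine-low cells of KO anti-PD-L1, KO untreated, WT anti-PD-L1 and WT untreated, and without those cells the log2 fold change of Hbb-bs was -0.31 and not called.

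**Figure D4:**
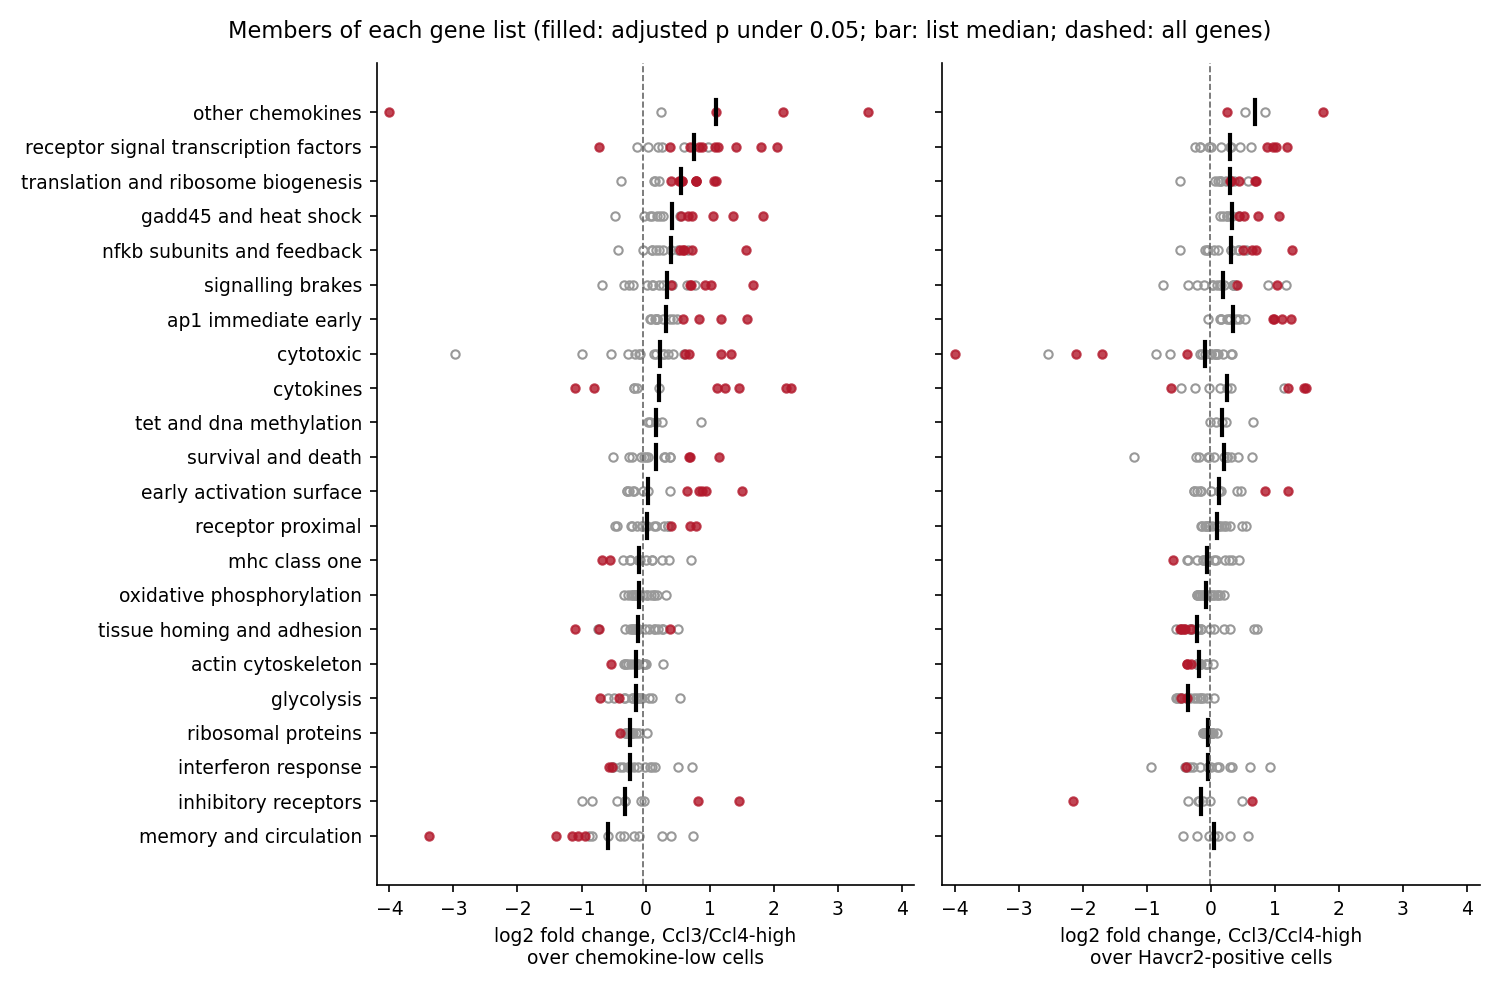
Log2 fold change of each tested list member, 1 point for each gene, in high cells against chemokine-low cells and against Havcr2-positive cells, with called genes filled and the list's median as a bar. Values beyond 4 either way (Ccl2 and Gzmd) are drawn at the edge, and the lists of transcription factors and of translation lie mostly above 0 in both comparisons.

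Havcr2-positive cells were the CD8 T cells with the next highest chemokine level, so the high cells were also set against the 580 of them that were non-mitotic and without Tcf7. Of 4929 genes tested, 72 (1.46%) were higher and 54 (1.1%) lower in high cells. Ccl4 stood at 3607, 3851, 4516 and 949 CPM in the Havcr2-positive cells of KO anti-PD-L1, KO untreated, WT anti-PD-L1 and WT untreated, below the high cells of the same library in each case. High cells all passed the chemokine threshold, while Havcr2-positive cells were taken at any chemokine level. Genes that vary with Ccl3 and Ccl4 thus differ by construction here too, as they do against all other CD8 T cells. The levels lay apart with no overlap for 1.28% of genes upward and 1.79% downward. The counts were 105 and 64 without WT untreated, 23 and 11 without WT anti-PD-L1, 27 and 23 without KO anti-PD-L1, and 37 and 28 without KO untreated.

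Some receptor-signal genes were higher in this comparison too. Of 14 transcription factors, 4 were higher and 0 lower (median 0.30, beside -0.02 over all genes tested), of 14 AP-1 genes 4 and 0 (median 0.35), and of 15 NF-kB genes 4 and 0 (median 0.32). Nr4a1 stood at 385 CPM in KO anti-PD-L1, 333 in KO untreated, 652 in WT anti-PD-L1 and 0 in WT untreated, against 208, 237, 249 and 5.10 CPM in Havcr2-positive cells, and was higher by 1.02 ± 0.14 (log2, adjusted p = 6.06e-07). Fos (1.25), Fosb (1.10), Atf3 (0.98) and Zfp36l1 (0.99) were the called AP-1 genes, and Rel (0.71), Nfkbia (0.51), Nfkbid (1.27) and Nfkbiz (0.64) the called NF-kB genes. Myc was higher by 1.19, Irf4 by 0.97 and Rgcc by 0.88.

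Of 11 cytokines, 3 were higher and 1 lower (median 0.26): Tnfsf14 (1.45), Tnfsf8 (1.49) and Tnfsf9 (1.21), with Spp1 at -0.63. Both called chemokines of 4 were higher (median 0.69). Ccl9 stood at 253 to 369 CPM in high cells, against 86.9 to 122 CPM in Havcr2-positive cells, with no overlap, and its log2 fold change of 1.75 ± 0.15 (adjusted p = 4.30e-13) was kept in 17 of 17 settings. Ccl5 was higher by 0.26, and under the first listing of barcodes its value was -0.13. Crtam was higher by 1.21 ± 0.16 (adjusted p = 6.06e-07) and Cd69 by 0.84, the 2 called of 13 early activation genes (0 lower, median 0.12). Of 18 brakes, 2 were higher and 0 lower (median 0.18), Dusp2 (0.41) and Socs1 (1.03). Of 14 translation genes, 5 were higher and 0 lower (median 0.30), and of 11 Gadd45 and heat shock genes, 4 and 0 (median 0.33). Marcksl1, an actin-binding protein, Ppan, a ribosome biogenesis factor, and the transcription factor Pou2f2 were among the 8 largest called increases, at 1.36, 1.29 and 1.15.

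The cytotoxic list differed from the comparison above. Of 19 tested, 0 were higher and 4 lower, and the median was -0.09. Gzmb stood at 4155 CPM in KO anti-PD-L1, 5930 in KO untreated, 4130 in WT anti-PD-L1 and 2973 in WT untreated, against 4665, 5435, 4152 and 4715 CPM in Havcr2-positive cells, and its log2 fold change of -0.17 ± 0.08 was not called (adjusted p = 0.369). Gzmc and Gzmf, granzymes of strongly activated mouse T cells, were lower by -1.70 and -2.10, together with Gzmd, which had 1 UMI in all high cells, and the NK receptor Klrd1 (-0.37). The Gzmc difference came from the WT libraries, with 49.3 CPM in high cells of WT anti-PD-L1 and 451 in WT untreated, against 336 and 1485 CPM in Havcr2-positive cells, whereas KO anti-PD-L1 had 43.3 and KO untreated 49.3 CPM in high cells, against 36.8 and 38.2 CPM.

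Some genes of the cytoskeleton and of homing and adhesion were lower in high cells than in Havcr2-positive cells. Of 16 actin genes, 3 were lower and 0 higher (median -0.18), namely Actb (-0.37), Tmsb4x (-0.38) and Tmsb10 (-0.30). Of 21 homing and adhesion genes, 5 were lower and 0 higher (median -0.22): the galectins Lgals1 (-0.47) and Lgals3 (-0.40), vimentin (Vim, -0.42), and the S100 proteins S100a4 (-0.48) and S100a6 (-0.31). Glycolysis had 2 of 17 lower and 0 higher (median -0.35), Aldoa (-0.38) and Tpi1 (-0.47). Of 8 inhibitory receptors, Cd160 was higher (0.64) and Cd244 lower (-2.16), while Pdcd1 was not called (-0.19, adjusted p = 0.521), and the median was -0.15. The remaining lists had at most 1 called member: memory 0 and 0 of 7 (median 0.04), interferon 0 and 1 of 15 (-0.04), survival 0 and 0 of 13 (0.20), class I presentation 0 and 1 of 14 (-0.06), oxidative phosphorylation 0 and 0 of 18 (-0.08), receptor-proximal 0 and 0 of 15 (0.09), TET and DNA methylation 0 and 0 of 5 (0.17), and ribosomal proteins 0 and 0 of 20 (-0.05). H2-Ab1 (-2.12), Cst3 (-0.99) and Fcer1g (-1.23), which myeloid cells express strongly, were among the largest called decreases. The 12 macrophage markers beside them summed to 50.1, 86.3, 33.6 and 103 CPM in the high cells of KO anti-PD-L1, KO untreated, WT anti-PD-L1 and WT untreated, against 34.6, 129, 51.1 and 76.5 CPM in Havcr2-positive cells, and their part in the result was not tested.

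Against all 4698 other CD8 T cells, mitotic and Tcf7-positive cells included, 233 of 9060 genes (2.57%) were higher and 391 (4.32%) lower. With DESeq2's size factors in place of TMM the split was 344 higher and 321 lower. The counts were 400 and 426 without WT untreated, 91 and 172 without WT anti-PD-L1, 113 and 166 without KO anti-PD-L1, and 162 and 192 without KO untreated. The 15 largest called increases were led by Ccl9 (3.46 ± 0.16, adjusted p = 3.90e-101), Tnfsf14 (2.12), Myc (1.76), Ccl5 (1.70), Crtam (1.67), Lilrb4a (1.66) and Mir155hg (1.64), all log2 fold changes. Vsir, which encodes the checkpoint receptor VISTA, and Tagap, a signalling protein of activated T cells, were also among them, at 1.27 and 1.37. The decreases were led, apart from globins, by mitotic genes such as Nusap1 (-3.34), Tpx2 (-3.21) and Cdc20 (-3.18), which the rule's limit on 6 mitotic genes makes low in the high cells, and by Dapl1 (-4.33).

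By list, this comparison gave for the receptor-signal transcription factors 8 higher and 1 lower of 17 (median 0.74, beside -0.11 over all genes tested), for AP-1 genes 8 and 0 of 14 (0.61), for NF-kB genes 6 and 0 of 15 (0.48) and for brakes 9 and 0 of 18 (0.44). Cytokines had 7 higher and 0 lower of 14 (1.22) and the cytotoxic list 7 and 0 of 19 (0.20). Memory genes had 0 higher and 6 lower of 17 (-0.49), among them Slamf6, a surface marker of progenitor-like cells (-1.25 ± 0.29, adjusted p = 6.27e-04). The other CD8 T cells include the Tcf7-positive cells that the rule keeps out of the high cells, and against chemokine-low cells, where Tcf7 is at 0 in both classes, Slamf6 was not called (-0.88, adjusted p = 0.0729). Cxcr6, a receptor for residence in tumours, was higher by 0.73 ± 0.15 (adjusted p = 4.21e-05). Il2, the growth factor cytokine, had 47 UMIs in high cells of KO anti-PD-L1, 2 in KO untreated, 0 in WT anti-PD-L1 and 0 in WT untreated, against 14, 5, 9 and 2 UMIs in the other CD8 T cells of these libraries. The 47 UMIs lay in 5 of 74 cells and 21 of them in 1 cell, so its call rests on few cells of 1 library.

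Between libraries, the high cells were compared by a rule of size with no test, counting genes that averaged 100 CPM or more and differed by 2-fold or more. Of 1356 genes past that level, 12 (0.885%) were higher and 13 (0.959%) lower in KO anti-PD-L1 than in WT anti-PD-L1. In KO untreated against WT untreated, 138 (10.2%) were higher and 128 (9.44%) lower. In KO anti-PD-L1 against KO untreated, 21 (1.55%) were higher and 19 (1.4%) lower, and in WT anti-PD-L1 against WT untreated 131 (9.66%) and 193 (14.2%). With TMM factors in place of totals, KO untreated against WT untreated gave 271 higher and 47 lower, and WT anti-PD-L1 against WT untreated 333 and 48. The pairs that hold the 14 cells of WT untreated gave the larger counts, at a depth of 48766 UMIs, and the part of counting error in them was not tested.

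With anti-PD-L1, the KO and WT high cells differed most, among named genes, in Ccl1. It had 25 UMIs (56.9 CPM) in KO anti-PD-L1 and 517 UMIs (1159 CPM) in WT anti-PD-L1, a log2 ratio of -4.35 (95% counting interval -4.99 to -3.77), from 6 and 23 cells with UMIs. Hspa1a, an inducible heat shock protein, had 162 UMIs in 17 cells of KO anti-PD-L1 and 16 UMIs in 5 cells of WT anti-PD-L1 (log2 ratio 3.36, 2.62 to 4.204). Klf2, a factor of quiescence and recirculation, and Lgals3 were lower in KO anti-PD-L1 than in WT anti-PD-L1, at -1.82 (-2.37 to -1.30) and -1.501 (-1.73 to -1.27). The early response genes Btg2 and Bhlhe40, chosen after their values were seen, stood at -1.12 (-1.38 to -0.87) and -1.08 (-1.43 to -0.74). Of other genes called in high cells, the log2 ratio in this pair was 0.02 for Ccl9, 0.01 for Gzmb, -0.45 for Ccl5 and -0.76 for Nr4a1. The 7 receptor-signal transcription factors past the level had a median log2 ratio of -0.70 in high cells and -0.14 in the other CD8 T cells of the same libraries, beside 0.05 over all genes past it, and the 12 translation genes 0.57 in high cells and 0.29 in the other cells.

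**Figure D5:**
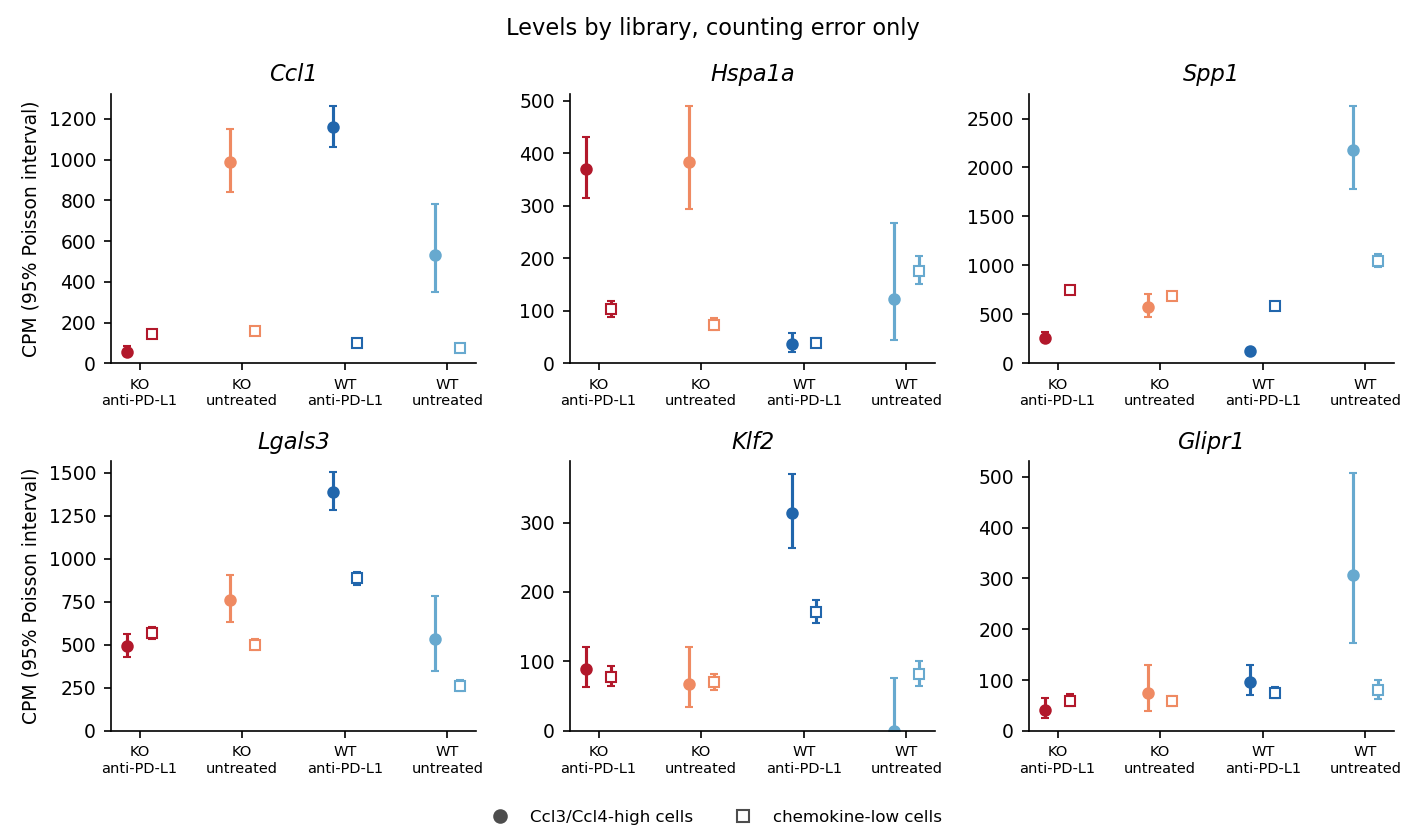
Levels (CPM, linear axis from 0) of genes that differ between libraries in the high cells (filled) and the chemokine-low cells (open) of KO anti-PD-L1, KO untreated, WT anti-PD-L1 and WT untreated, with exact Poisson 95% intervals. Ccl1 is low in KO anti-PD-L1 and Hspa1a is low in WT anti-PD-L1.

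Without treatment, Hspa1a was again higher in KO than in WT, with 62 UMIs in 8 cells of KO untreated and 6 UMIs in 4 cells of WT untreated (log2 ratio 1.64, 0.43 to 3.14), and under the first listing the ratio was -0.16. Glipr1 was the gene lower in both genotype pairs, at -1.23 (-2.11 to -0.41) with anti-PD-L1 and -2.06 (-3.28 to -0.86) untreated. Hspa1a was the 1 gene higher in both pairs, out of 11 with anti-PD-L1 and 134 untreated. Glipr1 was the 1 lower, out of 11 and 125, and whether unrelated lists would share as many was not tested. Ccl1 went the other way untreated, at 0.89, but 1 cell held all 26 UMIs of WT untreated and 1 cell held 91 of the 160 in KO untreated. Ccl5 was higher in KO untreated than in WT untreated, at 9918 and 2481 CPM, a log2 ratio of 2.00. TMM scaling moves every log2 ratio of this pair by 0.43 and of WT anti-PD-L1 over WT untreated by 0.57, beside -0.05 and 0.08 for the pairs without that library.

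By the rule of size, Gng2, Rps27rt and Rps28 were higher and Spp1, Sdf2l1 and Atxn10 lower with anti-PD-L1 in the high cells of both genotypes. Without predicted genes and T cell receptor segments, these were 3 higher genes out of 19 in KO and 127 in WT. The 3 lower genes were out of 17 in KO and 188 in WT. Whether more genes were shared than unrelated lists of these sizes would share was not tested. Spp1 stood at 262 CPM in KO anti-PD-L1 and 579 in KO untreated, and at 123 CPM in WT anti-PD-L1 and 2174 in WT untreated, log2 ratios of -1.15 and -4.14. A single cell held 65 of the 94 Spp1 UMIs in KO untreated and another 75 of the 106 in WT untreated, and under the first listing the KO ratio was 0.06. Sdf2l1, a chaperone partner of the endoplasmic reticulum, stood at -1.05 in KO and -1.83 in WT. Ccl5 moved by -0.10 in KO and 2.35 in WT, and Gzmb by -0.51 in KO and 0.47 in WT.

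Markers of other cell types differed by list in how high cells and chemokine-low cells compared. The 6 CD8 T cell markers summed to 5865, 7021, 7440 and 6049 CPM in the high cells of KO anti-PD-L1, KO untreated, WT anti-PD-L1 and WT untreated, against 7095, 6856, 6709 and 5325 CPM in chemokine-low cells. The 12 macrophage markers, of which 4, 6, 6 and 8 were at 0 in high cells, summed to 50.1, 86.3, 33.6 and 103 CPM in high cells, against 53.8, 63.9, 36.8 and 70.7 CPM in chemokine-low cells. The 7 NK cell markers summed to 11.4, 55.5, 17.9 and 0 CPM, against 22.97, 30.1, 20.7 and 9.36 CPM, and the 7 melanoma markers to 27.3, 30.8, 22.4 and 0 CPM, against 18.7, 29.7, 21.1 and 102 CPM. The 4 globin genes summed to 22.8, 6.16, 40.3 and 41.0 CPM, against 1279, 548, 2189 and 465 CPM. Mast cell and neutrophil markers were at 0 in the high cells of each library, and the dendritic cell markers at 0 in all but WT anti-PD-L1, where they summed to 2.24 CPM. The B cell list summed to 118, 179, 82.9 and 349 CPM, against 167, 244, 156 and 322 CPM, the CD4 T cell list to 15.9, 18.5, 26.9 and 0 CPM, against 7.86, 5.48, 11.4 and 8.32 CPM, and the gamma delta list to 303, 191, 251 and 287 CPM, against 266, 231, 258 and 98.8 CPM. Of the 3 gamma delta markers, 2 were at 0 in the high cells of each library, so 1 gene carried that sum. The CD4 list was thus above the chemokine-low level in 3 libraries and the gamma delta list in KO anti-PD-L1 and WT untreated, and the part of such cells in the results was not tested.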

How the data were processed

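The authors deposited, for each of 4 libraries of 10x Chromium 3′ version 2 single-cell RNA sequencing, a table of raw UMI counts per barcode and gene. The submitters' processing notes name DESeq2, HTSeq, bedtools, Bowtie2, HISAT2, Genrich 0.5, Trim Galore 0.5.0 and mm10, with no roles. How these tables were counted and cells called is not given in the sources used here. Each table lists most barcodes a second time with other counts; the second listing was used and the first was an alternative. Kept barcodes had 500 genes or more and no more than 10% mitochondrial UMIs, and 27916 genes were used. No doublet caller was run.

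Counts were summed per library and class of cells and tested with edgeR 4.0.16 (quasi-likelihood, TMM, filterByExpr, library as a block because both classes of a pair come from 1 library, two-sided, Benjamini-Hochberg over all genes tested, called at 0.05), in R 4.3.3, with DESeq2 1.42.0 as an alternative. The replicate is the library, of which there are 4 of 4 different groups. The p-values rest on a spread between these libraries that is shared in part across genes, and they say nothing about separate mice. UMIs of 1 cell are not independent. Intervals (Poisson, Clopper-Pearson, conditional binomial, scipy 1.17.1) are 95% intervals and cover counting error only, and a count of 0 allows up to 3 counts. The test was checked on simulated sums in which all libraries had the same gene proportions. No gene in them had its UMIs gathered in 1 cell, so the check says nothing about calls on such genes. The members, the 22 gene lists (363 of 364 members found) and the choice of tests were made with earlier results of these data known, so a list's direction is no independent evidence. Named genes were the markers, members of the lists, the 15 (all other cells) or 8 (each other comparison) largest called differences each way with the same direction in all 4 libraries and at least 50 CPM in 1 class, and, between libraries, up to 6 genes apart the same way in both genotype or both treatment pairs, without predicted genes and T cell receptor segments. Genes named for sharing a library's difference, and those found by testing whether a difference depends on genotype or treatment, were chosen after values were seen. Promoter sequences and positions are from RefSeq on GRCm38.p6. Some results are not reported here.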

Additional observations from a re-analysis of the deposited data

Results flagged for a closer look

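Whether the difference between high cells and a class of other cells itself depended on genotype or treatment was tested as an interaction in the same edgeR fit, an analysis chosen after the data were seen. Over all genes tested, the genotype term had an adjusted p under 0.05 for 1 gene against other CD8 T cells, 2 against chemokine-low and 2 against Havcr2-positive cells, and the treatment term for 11, 4 and 1. At an unadjusted p under 0.05 the genotype term had 259, 210 and 161 genes and the treatment term 431, 344 and 280. Each difference below is on the log2 scale, as KO minus WT or as anti-PD-L1 minus untreated, and each sets 2 libraries against the other 2. They were picked out because the difference between high and other cells was not alike in the 2 genotypes or the 2 treatments.

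The heat shock gene Hspa1a lay above the other cells in the KO libraries. There 1 cell held 48 of the 162 UMIs of KO anti-PD-L1 and 1 cell 19 of the 62 of KO untreated. In the WT libraries Hspa1a had 16 UMIs in 5 high cells with anti-PD-L1 and 6 UMIs in 4 untreated. Its log2 ratios to chemokine-low cells there were -0.13 and -0.51, and on so few UMIs no direction can be read from them. Its excess over other CD8 T cells was larger by 2.30 in KO (adjusted p = 4.90e-05), and its excess over chemokine-low cells by 2.45 (adjusted p = 5.35e-07). Without the cell with most UMIs these differences were 2.25 and 2.38. Hspa1a stood at 369 CPM in KO anti-PD-L1 and 382 in KO untreated, with 35.9 in WT anti-PD-L1 and 123 in WT untreated, against 103, 73.5, 39.3 and 176 CPM in chemokine-low cells of these libraries. The chemokine Ccl1 had an excess over chemokine-low cells that differed by -2.14. Its adjusted p was 1 with a robust spread, and without the cell with most UMIs the difference was -2.22 (adjusted p = 7.16e-08). Its difference by treatment against other CD8 T cells, -1.33, had an adjusted p of 0.969 with a robust spread.

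Gzmc was higher by 2.64 and the predicted gene Gm156 by 2.40 in KO when high cells were set against Havcr2-positive cells. The Gzmc counts in high cells were 19, 8, 22 and 22 UMIs in KO anti-PD-L1, KO untreated, WT anti-PD-L1 and WT untreated, and 1 cell held 19 of them in WT anti-PD-L1 and 1 cell held 20 in WT untreated.

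By treatment, Spp1 differed by -2.25 against other CD8 T cells and by -2.07 against chemokine-low cells, and the second was no longer called without the cell with most UMIs (adjusted p = 0.12). Gm156 differed by -1.71 and -1.50, and Serpinb9b, a serpin, by -2.58 and -2.04, against the same classes. The second Serpinb9b difference was no longer called with a robust spread (adjusted p = 0.0586) or without the cell with most UMIs (adjusted p = 0.139). Ccl9 had an excess over chemokine-low cells larger by 2.33 with anti-PD-L1 (adjusted p = 8.19e-09). Its chemokine-low level was 15.1 CPM in KO anti-PD-L1 and 14.4 in WT anti-PD-L1, against 69.9 CPM in KO untreated and 31.2 in WT untreated, while in high cells it stood at 348, 253, 343 and 369 CPM in KO anti-PD-L1, KO untreated, WT anti-PD-L1 and WT untreated. Against other CD8 T cells, the quiescence factor Klf2 differed by 1.97, Ifitm1 by -1.41, S100a4 by -1.15, S100a6 by -0.94, the metallothionein Mt1 by -1.11, the elongation factor Rtf1 by 2.21 and 2810417H13Rik by -1.41. Of these, S100a4 and S100a6 were also called without the cell with most UMIs (adjusted p = 0.00417 and 1.15e-04). Rtf1 and 2810417H13Rik were no longer called with a robust spread (adjusted p = 0.0732 and 0.942). The high cells of WT untreated held 0 UMIs of Klf2, 1 of Ifitm1 and 1 of Rtf1, and those of KO untreated held 5 of Rtf1, so these differences rest on few molecules. Against Havcr2-positive cells, Hbb-bs differed by 7.41, and 1 cell in KO untreated held 693 of the 702 UMIs there.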

How the results depend on the processing

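Counts of genes are given below as higher and lower in high cells. Both classes of a pair come from 1 library, so the library is the block and pairs them by construction. Without the replicate block the counts were 34 and 130 against other CD8 T cells, 13 and 5 against chemokine-low cells and 1 and 0 against Havcr2-positive cells (edgeR, with 90 lower at an unadjusted p under 0.05 in the last, where DESeq2 with the block called 5 lower). DESeq2 gave 112 and 123, 84 and 33, and 13 and 5. Thinning after selection gave 118 and 171, 145 and 94, and 41 higher against Havcr2-positive cells, and thinning before selection 236 lower against other cells. With no filter on low counts there were 168 and 272 against chemokine-low and 44 higher against Havcr2-positive cells. Cells without other types' UMIs gave 246 lower against other cells, and the first listing 112 lower against Havcr2-positive cells. A threshold of 5 UMIs gave 104 lower against chemokine-low and 25 and 27 against Havcr2-positive cells, and one of 20 UMIs 122 and 86. Leaving out 1 library gave 91 to 400 and 166 to 426, 95 to 341 and 55 to 209, and 23 to 105 and 11 to 64. The cause of these changes was not tested.

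In the order KO anti-PD-L1, KO untreated, WT anti-PD-L1 and WT untreated, the share was 11.04%, 5.25%, 10.0% and 2.78% of non-mitotic cells, 10.9%, 6.40%, 10.6% and 2.95% with a threshold of 5 UMIs, and 5.21%, 1.89%, 5.09% and 0.276% with 20.

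Between libraries, for KO over WT with anti-PD-L1, KO over WT untreated, anti-PD-L1 over untreated in KO and then in WT, a 1.5-fold limit at 50 CPM gave 251 and 162, 548 and 676, 259 and 267, and 498 and 823. TMM gave 271 and 47 for the second pair, 9 lower for the third and 333 and 48 for the fourth. Thinning gave 27 and 28 for the first and 44 and 39 for the third, and the first listing 85 lower for the second. A threshold of 5 UMIs gave 5 and 7, 91 and 61, and 7 and 8 for the first 3 pairs, and one of 20 gave 20 and 26, 384 lower, 43 and 42, and 422 lower. Without each gene's top cell there were 10 lower in the third and 109 lower in the fourth.

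Signs turned in 18 cases. With thinning before selection, Hba-a1 was 0.49 and Hba-a2 0.58 against other cells and 0.13 and 0.090 against chemokine-low cells, and Cst3 was 0.52, Gzmb 0.17, Gzmc 0.074 and H2-Ab1 0.20 against Havcr2-positive cells. Pdcd1 against chemokine-low cells was 0.0036 by DESeq2, 0.030 without the replicate block and 0.032 without its top cell, and between -0.073 and 0.077 with 1 library left out, where it was above 0 without KO anti-PD-L1. The first listing gave -0.13 for Ccl5 against Havcr2-positive cells, -0.16 for Hspa1a in KO over WT untreated and 0.060 for Spp1 in KO. Thinning gave 0.15 for Spp1 in KO over WT untreated, and a threshold of 20 UMIs gave -0.75 for Ccl1 and -1.16 for Gng2 in WT. Of 170 named gene results, 163 kept direction and call with a robust spread, 81 by DESeq2 and 38 without the replicate block, and 162 without WT untreated. The 48766 UMIs of the 14 WT untreated cells limit every comparison with that library.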
